A study of Homo sapiens with 8 samples.

Results

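The genes of the nuclear pore complex were followed in BEAS-2B cells, an SV40-immortalised human bronchial epithelial cell line, after 4 h of exposure to fibrinogen-related preparations. The set holds 30 genes, picked by symbol from the 50006 genes counted: 29 nucleoporins and KPNB1, an import receptor that is not itself a pore component. All 30 passed the filter on low counts, as did 16307 genes in all. They were chosen with values of FBG against Mock in view, so its fold changes, and its counts past the threshold used for all genes, are given below as a description, without p-values, and support nothing. FBG cultures received fibrinogen, M1-FCP cultures received FCPs derived from Der m 1 (the labels do not expand the abbreviation), and αC cultures received the fibrinogen αC domain, each at 4 ng/µl, while Mock cultures received PBS. The labels call all cells WT, and all were grown in serum-free LHC-9 medium. The title of the series ties the αC domain to the group 1 allergen of the mite Dermatophagoides microceras, whereas the sample labels name fibrinogen; how it was prepared was not stated in the labels. Each group had 2 libraries, 8 in all, made from messenger RNA with random primers. The study set out to follow adhesion-related transcripts, and nuclear pore genes are no part of that stated aim.

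The nuclear pore complex is the channel through the nuclear envelope. An inner ring lines the channel, Y-shaped complexes form a ring on each face, and membrane proteins anchor the whole to the envelope. Nucleoporins rich in phenylalanine and glycine fill the centre and bind the transport receptors that carry cargo, filaments reach into the cytoplasm, and a basket reaches into the nucleus. Scaffold proteins of the pore are known to be long-lived in non-dividing cells, and only transcripts were measured here.

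Library totals were 15137196 and 15144403 counts in FBG, 21715092 and 21680688 in M1-FCP, 22258791 and 22248780 in αC, and 16553366 and 16561302 in Mock. The labels call the 2 libraries of a group biological replicates and say nothing of separate passages or days, so a p-value covers the spread between these 8 libraries alone, and that spread may be technical. The libraries of M1-FCP and αC stood apart from those of FBG and Mock in cell type markers. The summed level of 6 airway epithelial markers was 811 to 823 CPM (counts relative to library size, with TMM scaling) in FBG, 3441 to 3491 in M1-FCP, 3351 to 3411 in αC and 959 to 968 in Mock. All 6 were called higher in M1-FCP and in αC against Mock, whereas in FBG 3 were called higher and 2 lower. KRT5, a keratin of basal cells, was at 6.93 to 7.61 CPM in FBG, 1570 to 1589 in M1-FCP, 1569 to 1634 in αC and 1.80 to 2.27 in Mock, and CDH1 and EPCAM also lay under 10 CPM in every FBG and Mock library. The sum of 6 fibroblast markers was 1225 to 1232 CPM in FBG, 230 to 231 in M1-FCP, 241 to 242 in αC and 2387 to 2420 in Mock, and of the 5 tested 4 were called lower in FBG and all in M1-FCP and in αC against Mock. The sum of 5 blood markers was 20.1 to 22.8 CPM in FBG, 13.9 to 14.6 in M1-FCP, 14.3 to 14.6 in αC and 28.7 to 34.4 in Mock, with CD3E and HBB at 0 in every library. Most of that sum was CD68, at 18.9 to 21.1 CPM in FBG, 11.8 in M1-FCP, 12.0 to 12.1 in αC and 27.0 to 32.5 in Mock. PTPRC did not pass 0.0673 CPM in any library. The labels do not say whether the cultures of the 4 groups came from the same stock. In every fold change between groups, αC against M1-FCP included, the exposure and the culture thus cannot be told apart. The part of the marker shifts in the values below was not tested, and in bulk RNA fewer cells of a type and less RNA per cell cannot be told apart.

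Per length of exon, KPNB1 was the most abundant of the 30 genes in every group. It averaged 214 CPM per kb in FBG, 167 in M1-FCP, 153 in αC and 170 in Mock. The next highest was SEC13 with 64.1 CPM per kb in FBG, NUP188 with 46.5 in M1-FCP, NUP153 with 48.6 in αC and SEC13 with 77.0 in Mock. Of the 28 genes without a copy on an alternate locus, NUP210 was the lowest in every group, at 3.49 CPM per kb in FBG, 0.565 in M1-FCP, 0.631 in αC and 3.29 in Mock; the levels of AAAS and NUP160, which have such copies, are uncertain. The middle of the order was crowded: in Mock the inner ring genes NUP205, NUP188 and NUP155 averaged 47.8, 47.3 and 46.9 CPM per kb, and the libraries of each overlapped those of the next. The 3 genes whose place differed most between αC and Mock were TPR, RANBP2 and AHCTF1. TPR ranked 15 of 30 in FBG, 9 in M1-FCP, 6 in αC and 25 in Mock. RANBP2 ranked 19, 12, 10 and 27 in the same groups, and AHCTF1 ranked 18, 16, 13 and 24.

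**Figure D1:**
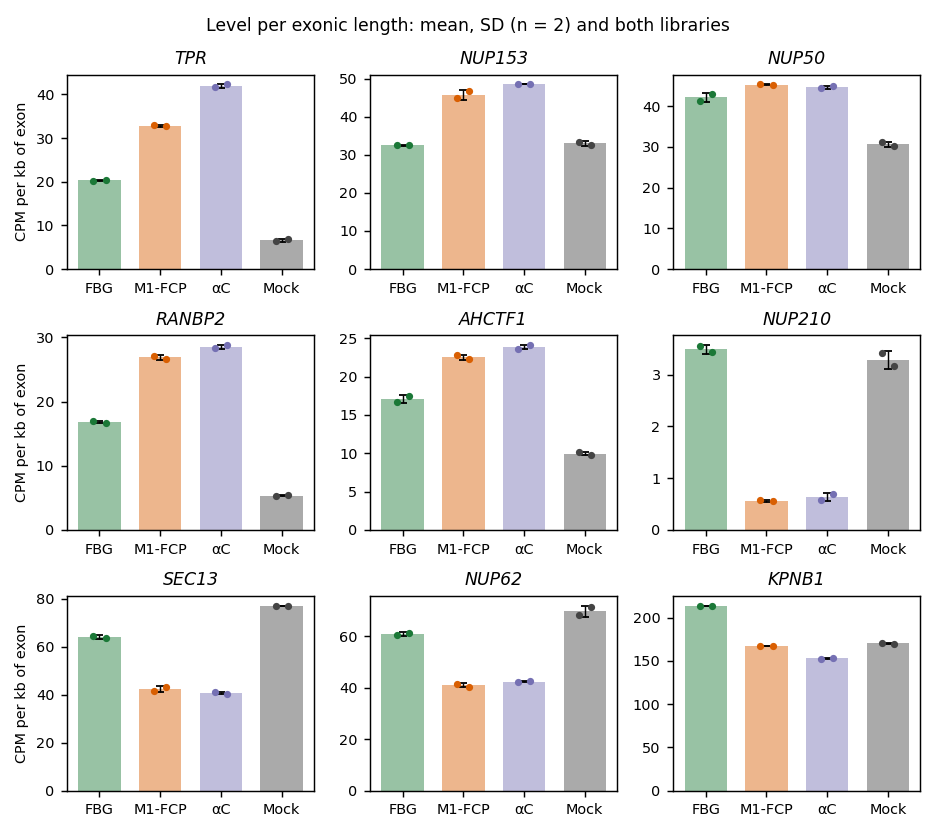
Level per kb of exon, in TMM-scaled CPM per kb, of 9 nuclear pore genes in FBG, M1-FCP, αC and Mock; bars are means, error bars SD (n = 2) and points the libraries. TPR averaged 20.3 CPM per kb in FBG, 32.9 in M1-FCP, 42 in αC and 6.55 in Mock, while NUP210 averaged 3.49, 0.565, 0.631 and 3.29.

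Against Mock, most nuclear pore genes sat close to or below it, and a few lay far above. In FBG against Mock, 8 of 30 genes were called higher and 13 lower, 70.0% in all, where 50.4% of all tested genes and 82.3% of those with a mean of at least 1000 counts were called. Their median log2 fold change was -0.03, against 0.02 over all tested genes, and with library size as the only scaling the members' median turned to 0.08 while that of all genes moved to 0.13. In M1-FCP against Mock 8 rose and 14 fell, 73.3%, against a background of 73.4% of all tested genes and 91.7% of those with at least 1000 counts. The median was -0.11, against 0.06 over all genes; with library size as the only scaling these were 0.11 and 0.28. In αC against Mock 7 rose and 17 fell, 80.0%, against 74.7% and 92.7%. The median was -0.17, against 0.06 over all genes; with library size as the only scaling these were 0.06 and 0.29. A call is an adjusted p under 0.05 in edgeR's quasi-likelihood test with Benjamini-Hochberg adjustment over all tested genes. The cut at 1000 counts was not applied to the members, and AAAS, NUP35, NUP37, NUP42, NUP160 and NUP210 had fewer in every library. The members' shares are thus not matched to that second background. The shares called in M1-FCP and αC lay near the background over all genes, and nothing is read from the count in FBG, since that comparison chose the genes. All 3 comparisons use the same Mock libraries, so the choice of the genes also bears on M1-FCP and αC against Mock. Their p-values below come from the test over all genes and are not corrected for that choice.

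**Figure D2:**
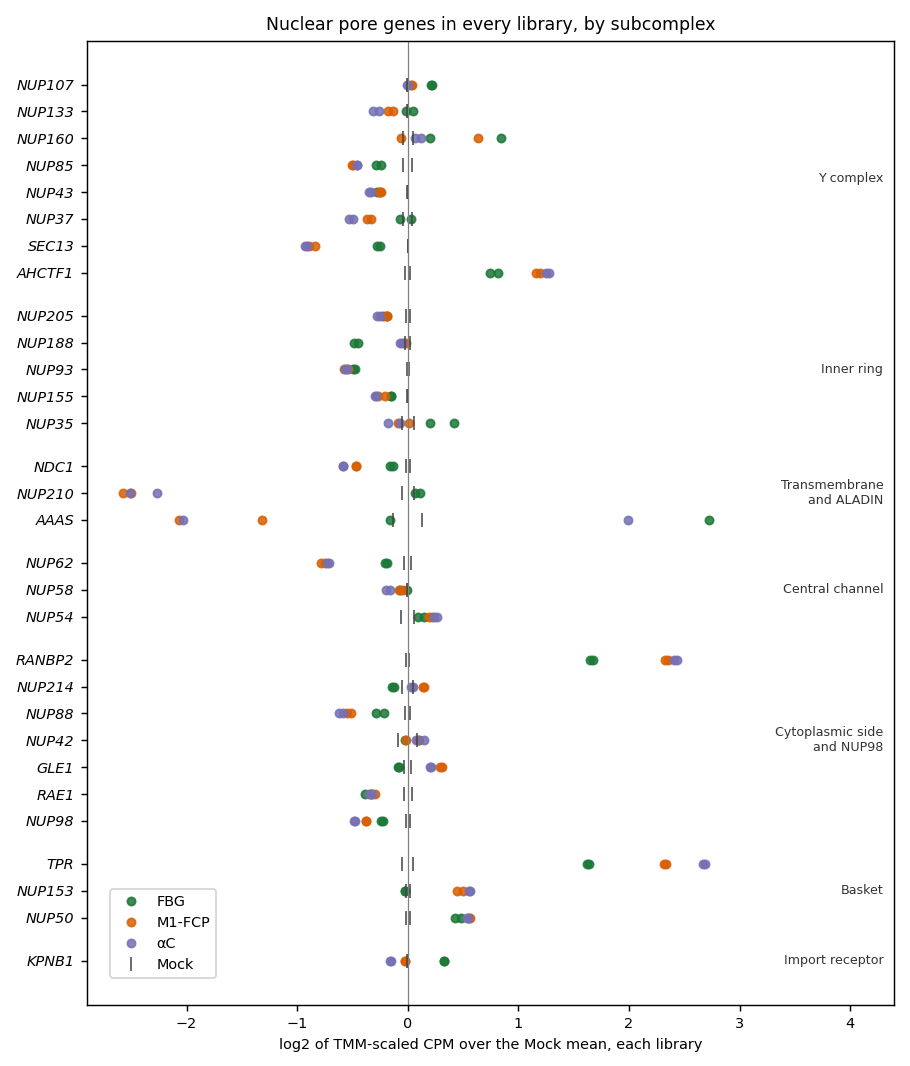
Each library's level of the 30 genes as the log2 ratio of its TMM-scaled CPM to the Mock mean, by subcomplex; circles are libraries of FBG, M1-FCP and αC, and ticks are Mock libraries. TPR, RANBP2 and AHCTF1 lie right of Mock in all 3 exposed groups, NUP210 lies left of it in M1-FCP and αC only, and the libraries of AAAS scatter within groups.

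The nuclear basket held TPR, the called gene of the set with the largest increase in αC and, after RANBP2, the next largest in FBG and M1-FCP. TPR (chromosome 1, 186311652 to 186375253, minus strand), the coiled-coil protein that forms the basket filaments, had 195 and 197 CPM in FBG, 318 and 315 in M1-FCP, 402 and 408 in αC, and 61.0 and 65.4 in Mock. The groups did not overlap, with αC above M1-FCP, M1-FCP above FBG and FBG above Mock. The log2 fold change was 1.63 ± 0.04 in FBG against Mock, the 96.5th percentile of all tested genes, with ± the larger of the fit's standard error and the counting error. TPR rose by 2.33 ± 0.04 in M1-FCP (adjusted p = 2.2e-25) and by 2.68 ± 0.03 in αC (adjusted p = 1.2e-26). These rises lay at the 92.5th and 93.5th percentiles of all tested genes. NUP153, which links the basket to the pore and binds transport receptors, had 199 and 199 CPM in FBG, 275 and 286 in M1-FCP, 298 and 297 in αC, and 205 and 199 in Mock. In FBG its log2 fold change was -0.02 ± 0.03, or 0.09 with library size as the only scaling and -0.12 with GC content and length removed. It rose by 0.47 ± 0.02 in M1-FCP and by 0.56 ± 0.02 in αC. NUP50, a basket nucleoporin that helps to release imported cargo (singled out after its values were seen), was higher by 0.46 ± 0.03 in FBG and rose by 0.56 ± 0.02 in M1-FCP and 0.54 ± 0.02 in αC. In M1-FCP and in αC, all 3 basket genes were thus called higher, as were 37.3% and 38.0% of all tested genes. NUP153 and NUP50 lay between the 64.7th and 67.3rd percentiles of all tested genes in these groups.

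On the cytoplasmic side, RANBP2 had by far the largest change of 7 genes. RANBP2 (chromosome 2, 108719482 to 109842301, plus strand), the giant filament protein that binds Ran and acts as a SUMO ligase, had 219 and 215 CPM in FBG, 349 and 343 in M1-FCP, 365 and 371 in αC, and 67.9 and 69.2 in Mock. The libraries of each group lay apart from those of the others. The log2 fold change was 1.66 ± 0.04 in FBG, and RANBP2 rose by 2.34 ± 0.03 in M1-FCP (adjusted p = 4.6e-26) and by 2.42 ± 0.03 in αC (adjusted p = 1.7e-26). Its rises lay at the 92.6th and 92.4th percentiles of all tested genes. RANBP2 has 7 close relatives, the RGPD genes, whose summed counts came to 5.53% to 10.2% of its own. With their reads added to it, the log2 fold changes were 1.63, 2.30 and 2.37 in the same order. An exon of 898 bases credited to RANBP2 lies inside RGPD5 and makes up 6.97% of its exonic length. RAE1, an mRNA export factor that partners NUP98 (chromosome 20, 57351255 to 57379202), was the lowest of the 7 in FBG. It had 62.3 and 64.9 CPM in FBG, 64.8 and 66.3 in M1-FCP, 64.1 and 65.3 in αC, and 79.5 and 83.6 in Mock. The exposed groups overlapped each other below Mock, at -0.36 ± 0.04 in FBG, -0.31 ± 0.04 in M1-FCP and -0.33 ± 0.04 in αC, and 30.8% of the exonic length of RAE1 is shared with a gene on the opposite strand. NUP98, an autoproteolytic nucleoporin on both faces of the pore, had 246 and 244 CPM in FBG, 221 and 222 in M1-FCP, 208 and 205 in αC, and 284 and 292 in Mock, apart in every group. It was at -0.23 ± 0.02 in FBG and fell in M1-FCP (-0.38 ± 0.02) and in αC (-0.48 ± 0.02).

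NUP214, a partner of NUP88 at the filaments, had 197 and 195 CPM in FBG, 237 and 236 in M1-FCP, 222 and 219 in αC, and 208 and 222 in Mock. Its log2 fold change was -0.13 ± 0.03 in FBG (-0.02 with library size as the only scaling), 0.14 ± 0.03 in M1-FCP and 0.04 ± 0.03 in αC, where the libraries overlapped those of Mock. With trends of GC content and length removed, it stood at -0.08 in M1-FCP and -0.20 in αC, so its direction in both depends on that choice. That removal put the median of all genes at -0.06 in FBG, -0.18 in M1-FCP and -0.19 in αC. The remaining members of the class were NUP88, at -0.25, -0.53 and -0.60 in FBG, M1-FCP and αC, GLE1, an mRNA export factor, at -0.08, 0.30 and 0.20, and NUP42, which binds GLE1, at 0.04, 0.04 and 0.11 (direction reversed in FBG, M1-FCP and αC with GC content and length removed). NUP88 shares 38.9% of its exonic length with RABEP1 on the opposite strand. NUP214, GLE1 and the inner ring gene NUP188 lie on chromosome 9, whose 705 tested genes had a median log2 fold change of 0.004 in FBG, 0.58 in M1-FCP and 0.59 in αC. NUP153 and NUP43 lie on chromosome 6, whose 766 tested genes had medians of 0.12, 0.48 and 0.48. The part of these chromosome-wide values in those of the 5 genes was not tested.

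Among the 8 Y complex genes of the set, AHCTF1 was the only one that rose in M1-FCP and in αC; SEH1L, a further Y complex subunit outside the set, also rose in both, by 0.46 ± 0.05 and 0.47 ± 0.05. AHCTF1 (chromosome 1, 246839098 to 246931948), also known as ELYS, which brings the Y complex to chromatin when pores are built after mitosis, had 154 and 162 CPM in FBG, 211 and 206 in M1-FCP, 219 and 223 in αC, and 93.5 and 90.5 in Mock. The groups lay apart, again with αC highest and Mock lowest. Its log2 fold change was 0.78 ± 0.03 in FBG, and it rose by 1.18 ± 0.03 in M1-FCP (adjusted p = 1.1e-19) and by 1.26 ± 0.03 in αC (adjusted p = 2.5e-20). Among all tested genes, these rises lay at the 81.4th and 81.7th percentiles. Of the other Y complex genes, 5 fell in M1-FCP and the same number fell in αC, as did 36.1% and 36.7% of all tested genes. SEC13, which also serves the COPII coat of secretory vesicles, was the lowest in M1-FCP and αC, at -0.86 ± 0.03 and -0.92 ± 0.03, and was at -0.26 ± 0.03 in FBG (singled out after its values were seen). NUP43, a small beta-propeller scaffold subunit, was lowest in FBG. It had 92.4 and 93.9 CPM in FBG, 93.6 and 94.8 in M1-FCP, 88.1 and 89.3 in αC, and 112 and 112 in Mock, where all 3 exposed groups lay under Mock and FBG overlapped M1-FCP. Its log2 fold changes were -0.27 ± 0.04, -0.25 ± 0.03 and -0.34 ± 0.03, and in M1-FCP the call was lost with library size as the only scaling (-0.03). The scaffold genes NUP85, NUP37 and NUP133 were at -0.26, -0.02 and 0.02 in FBG, at -0.50, -0.35 and -0.15 in M1-FCP and at -0.46, -0.52 and -0.28 in αC; NUP133 turned to 0.07 in M1-FCP with library size as the only scaling and to -0.10 in FBG with GC content and length removed. NUP107 was at 0.21 ± 0.04 in FBG, and at 0.03 ± 0.03 in M1-FCP and -0.003 ± 0.033 in αC, with neither called. With GC content and length removed it was at -0.09, -0.45 and -0.48 and called lower in both, and with library size as the only scaling it was called higher in αC at 0.23. NUP160 has a copy on an alternate locus and gave 26.9 and 17.3 CPM in FBG, 23.4 and 14.4 in M1-FCP, 16.3 and 15.7 in αC, and 15.5 and 14.6 in Mock, so its level is uncertain.

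In the membrane ring, NUP210 had the largest decrease of the set in M1-FCP and in αC. NUP210 (chromosome 3, 13316235 to 13420322, minus strand), a glycoprotein of the pore membrane whose expression varies between cell types, had 37.7 and 36.4 CPM in FBG, 6.15 and 5.84 in M1-FCP, 6.13 and 7.27 in αC, and 36.2 and 33.6 in Mock. FBG and Mock lay together, far above M1-FCP and αC, which overlapped each other. It fell in M1-FCP, with a log2 fold change of -2.54 ± 0.10 (adjusted p = 5.6e-17), and in αC, with one of -2.38 ± 0.09 (adjusted p = 1.4e-16). The log2 fold change in FBG was 0.09 ± 0.08. NDC1, a membrane protein needed to insert new pores (chromosome 1, 53765478 to 53838296), had 151 and 148 CPM in FBG, 120 and 120 in M1-FCP, 111 and 110 in αC, and 163 and 168 in Mock. Every group lay apart, at -0.15 ± 0.03 in FBG, -0.47 ± 0.03 in M1-FCP and -0.58 ± 0.03 in αC against Mock, although library size as the only scaling left -0.03 in FBG, short of a call. AAAS, which encodes ALADIN, a partner of NDC1, also has a copy on an alternate locus. It had 19.4 and 2.62 CPM in FBG, 1.18 and 0.698 in M1-FCP, 0.718 and 11.6 in αC, and 2.66 and 3.19 in Mock. Within αC the libraries differed by 16.2 times, and no direction can be read for this gene.

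The 250 bases before the annotated start of TPR, RANBP2 and NUP210 are shown because these genes set the upper and lower ends of the range in M1-FCP and αC against Mock. They come from RefSeq (GRCh38.p14), read 5′ to 3′ on the strand of the gene, at chr1:186375254-186375503 for TPR, chr2:108719232-108719481 for RANBP2 and chr3:13420323-13420572 for NUP210. Capitals mark, on either strand, CCAAT (the box bound by NF-Y), GGGCGG (the GC box bound by SP factors), CCGGAA (a core bound by ETS factors) and TTTGAA (an element of cell cycle promoters).
TPR: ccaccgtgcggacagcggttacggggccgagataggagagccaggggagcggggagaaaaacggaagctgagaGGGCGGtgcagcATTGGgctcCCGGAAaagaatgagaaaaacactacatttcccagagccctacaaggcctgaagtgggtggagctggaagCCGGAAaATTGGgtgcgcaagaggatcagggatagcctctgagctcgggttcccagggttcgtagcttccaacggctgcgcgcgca
RANBP2: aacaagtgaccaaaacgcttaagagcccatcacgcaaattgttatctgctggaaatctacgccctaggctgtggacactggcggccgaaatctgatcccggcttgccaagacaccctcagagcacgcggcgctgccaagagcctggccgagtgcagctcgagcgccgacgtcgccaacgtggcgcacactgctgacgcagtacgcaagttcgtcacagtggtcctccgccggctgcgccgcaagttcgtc
NUP210: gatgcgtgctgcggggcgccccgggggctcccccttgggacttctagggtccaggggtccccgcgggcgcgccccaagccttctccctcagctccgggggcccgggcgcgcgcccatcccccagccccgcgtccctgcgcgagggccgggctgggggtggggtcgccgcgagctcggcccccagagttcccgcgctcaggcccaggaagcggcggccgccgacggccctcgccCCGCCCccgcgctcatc
The TPR stretch holds 2 CCAAT, 1 GGGCGG and 2 CCGGAA matches, that of NUP210 holds 1 GGGCGG match, and that of RANBP2 holds none of the 4. Of the 30 genes, 26 have a promoter entry and AHCTF1, GLE1, KPNB1 and NUP43 do not. Of the 26, 12 hold CCGGAA (46.2%), against 14.8% of all 27305 promoters and 23.8% of 12080 promoters of tested genes. CCAAT is in 10 of the 26 (38.5%, against 33.0% and 34.0%), GGGCGG in 11 (42.3%, against 42.3% and 64.8%) and TTTGAA in 6 (23.1%, against 13.6% and 8.59%). No 2 marked matches share a letter in the stretches printed, and a match describes these windows only.

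The inner ring, the scaffold that lines the channel, lay mostly below Mock. NUP93, its linker protein (chromosome 16, 56730129 to 56850286), had 136 and 134 CPM in FBG, 127 and 131 in M1-FCP, 128 and 130 in αC, and 189 and 191 in Mock. All 3 exposed groups lay below Mock, and M1-FCP and αC overlapped. NUP93 was at -0.49 ± 0.03 in FBG, and fell in M1-FCP (-0.56 ± 0.03) and in αC (-0.56 ± 0.03). NUP188, a large solenoid protein, was at -0.47 ± 0.02 in FBG, and at -0.03 ± 0.02 in M1-FCP and -0.06 ± 0.02 in αC, where library size as the only scaling gave 0.19 and 0.17. NUP205, its paralog, and NUP155 were at -0.21 and -0.15 in FBG, at -0.19 and -0.24 in M1-FCP and at -0.26 and -0.29 in αC, and NUP205 turned to 0.03 in M1-FCP with library size as the only scaling. NUP35, a membrane-binding subunit (chromosome 2, 183117514 to 183161680), had 16.9 and 19.6 CPM in FBG, 13.8 and 14.8 in M1-FCP, 14 and 13 in αC, and 14.1 and 15.2 in Mock. Only FBG stood above Mock, by 0.31 ± 0.10, and neither M1-FCP nor αC was called. With GC content and length removed it was at -0.02 in FBG and was called lower in M1-FCP (-0.37) and αC (-0.46).

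The central channel genes encode the phenylalanine-glycine trimer of NUP62, NUP58 and NUP54. NUP62 (chromosome 19, 49906825 to 49929504) had 205 and 208 CPM in FBG, 141 and 137 in M1-FCP, 143 and 144 in αC, and 232 and 242 in Mock. It was at -0.20 ± 0.03 in FBG (-0.05 with GC content and length removed) and fell in M1-FCP (-0.77 ± 0.03) and in αC (-0.72 ± 0.03). NUP54 (chromosome 4, 76114664 to 76148397) had 71.6 and 68.7 CPM in FBG, 74.9 and 73.6 in M1-FCP, 76.1 and 77.4 in αC, and 61.9 and 67.1 in Mock. Its log2 fold changes of 0.12 ± 0.05, 0.20 ± 0.04 and 0.25 ± 0.04 turned to -0.15, -0.16 and -0.11 with GC content and length removed. NUP58 was at -0.04, -0.06 and -0.18, called in αC alone. With library size as the only scaling it was at 0.16 in M1-FCP, called higher, and 0.05 in αC, not called, and with GC content and length removed it was at -0.44, -0.61 and -0.74, past the threshold in all 3. The 3 partners of the trimer thus did not share a direction in M1-FCP or αC under TMM scaling. With GC content and length removed all 3 lay below Mock, but so did the median of all genes. That median was -0.06 in FBG, -0.18 in M1-FCP and -0.19 in αC, and NUP54 lay above it in M1-FCP and αC. KPNB1, the importin beta that carries cargo through the channel (chromosome 17, 47649919 to 47685505), had 1362 and 1362 CPM in FBG, 1063 and 1067 in M1-FCP, 972 and 977 in αC, and 1086 and 1082 in Mock. It was highest in FBG (0.33 ± 0.01), at -0.03 ± 0.01 in M1-FCP and at -0.15 ± 0.01 in αC, and library size as the only scaling turned the last 2 to 0.19 and 0.08, both called, while with GC content and length removed they were -0.19 and -0.30, also both called.

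αC against M1-FCP shares no library with FBG against Mock. The genes were chosen with earlier results of these data known, however, and the fit drew its spread from all 8 libraries. It is thus no independent test of these genes. Here 11 of 30 genes were called, 4 higher and 7 lower (36.7%), where 9.01% of all tested genes (4.57% higher and 4.45% lower) and 23.6% of those with a mean of at least 1000 counts were called. That cut on counts was not applied to the 30 genes. The differences were small apart from TPR, which rose by 0.35 ± 0.02 (adjusted p = 7.4e-11), a ratio of 1.28. RANBP2, AHCTF1 and NUP153 rose by 0.09 ± 0.02 (adjusted p = 0.00581), 0.09 ± 0.03 (adjusted p = 0.0437) and 0.08 ± 0.02 (adjusted p = 0.0159). KPNB1 was at -0.13 ± 0.01 (adjusted p = 5.1e-07), NUP98 at -0.10 ± 0.02 (adjusted p = 0.00282), NDC1 at -0.12 ± 0.03 (adjusted p = 0.00822) and NUP214 at -0.10 ± 0.03 (adjusted p = 0.0119), and all 4 fell. The other 3 that fell were NUP58, NUP133 and NUP205, at -0.11, -0.13 and -0.07. NUP210 was at 0.16 ± 0.12 and was not called, with a 95% counting interval of -0.07 to 0.39. The number called was 5 without M1-FCP library 1, 5 without M1-FCP library 2, 5 without αC library 1 and 4 without αC library 2, and DESeq2 called 4. TPR and KPNB1 kept their calls in each of these fits, whereas AHCTF1 and NDC1 lost theirs in all of them; RANBP2, NUP153, NUP98 and NUP214 lost theirs in some.

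**Figure D3:**
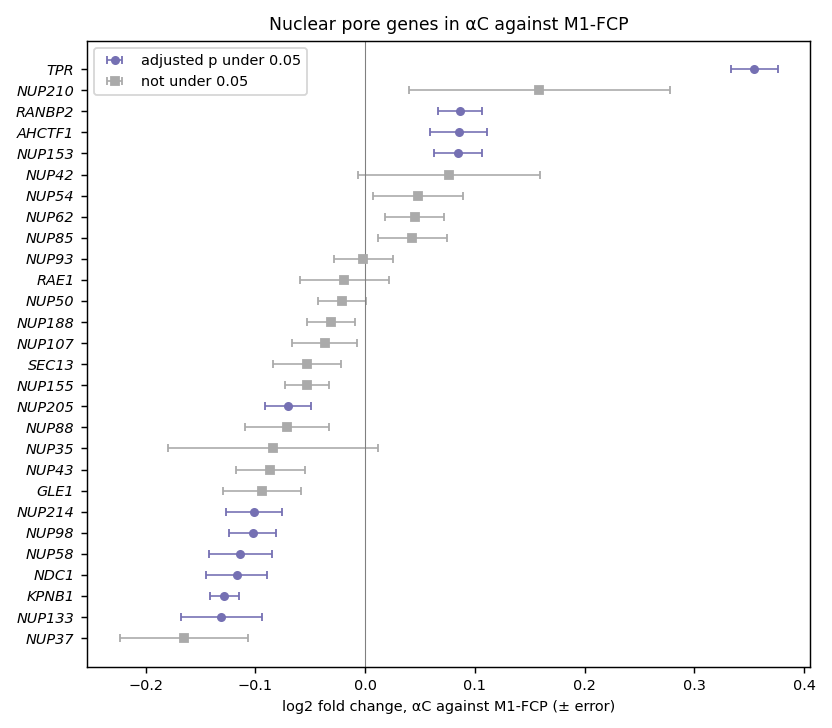
Log2 fold change of αC against M1-FCP for 28 nuclear pore genes (NUP160 and AAAS, which have alternate-locus copies, are left out); bars are ± the larger of the fit's standard error and the counting error, circles are genes with an adjusted p under 0.05 and squares are the others. TPR lies at 0.35, apart from all others, and the 7 genes called lower lie between -0.13 and -0.07.

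The transcripts that rose most are long and poor in GC, and so were many other genes that rose. RANBP2 (12877 exonic bases), NUP210 (10612), TPR (9636), AHCTF1 (9251) and NUP93 (9163) are the longest of the 30. GC content was 39.2% in RANBP2, 40.1% in TPR and 40.3% in AHCTF1, against 46.8% in NUP93 and 58.3% in NUP210. Over the 28 genes without an alternate-locus copy, Spearman's rho of the log2 fold change with exonic length was 0.27 in FBG, 0.31 in M1-FCP and 0.30 in αC against Mock. Without TPR, RANBP2 and AHCTF1 it was -0.01, 0.06 and 0.06 over 25 genes, so the relation with length rested on those 3. With GC content, rho was -0.57, -0.47 and -0.45 over 28 genes and -0.48, -0.37 and -0.34 over 25. Over all tested genes, rho was 0.17, 0.21 and 0.20 with length and -0.40, -0.27 and -0.23 with GC content. These are descriptions across genes, which share libraries and are not independent replicates. The 905 tested genes with at least 9000 exonic bases and at most 42% GC had a median log2 fold change of 0.44 in FBG, 0.72 in M1-FCP and 0.74 in αC, with 95th percentiles of 1.599, 2.86 and 2.87. TPR and RANBP2 lay just past that percentile in FBG and below it in M1-FCP and αC. With trends of GC content and length removed, the log2 fold changes were 1.27, 1.71 and 2.07 for TPR, 1.24, 1.61 and 1.70 for RANBP2, 0.44, 0.59 and 0.68 for AHCTF1, and 0.12, -2.80 and -2.70 for NUP210. By that fit 5 members were higher and 19 lower in FBG against Mock, where 50.8% of 14330 genes were called, 2537 higher and 4741 lower. In M1-FCP 6 rose and 21 fell (76.4% of all genes called, 4066 higher and 6875 lower). In αC 6 rose and 21 fell (77.6%, 4131 higher and 6996 lower). The fit put the median of all genes at -0.06, -0.18 and -0.19 in the same order. In αC against M1-FCP 4 rose and 6 fell (12.5% of all genes called, 668 higher and 1123 lower). TPR stayed at 0.36 there, and the 905 long GC-poor genes had a median of 0.01 without that removal.

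**Figure D4:**
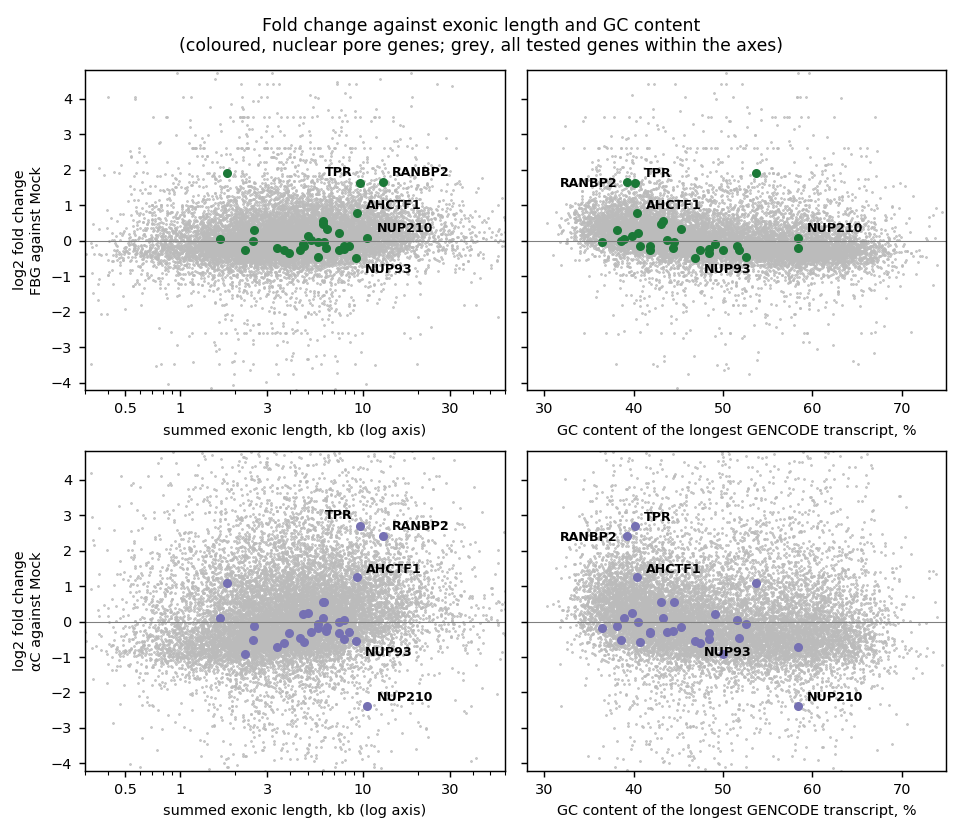
Log2 fold change in FBG against Mock (top) and αC against Mock (bottom) by summed exonic length (left, log axis) and by GC content of the longest GENCODE transcript (right); coloured points are the 30 nuclear pore genes and grey points all tested genes that fall within the axes. TPR, RANBP2 and AHCTF1 lie at the long, GC-poor end, and NUP210, as long but richer in GC at 58.3%, lies near 0 in FBG and at -2.38 in αC; the unlabelled high point at 53.7% GC is AAAS, whose libraries scatter.

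Other genes of nuclear transport and of the nuclear envelope were drawn from a list of 57, of which 54 were tested. In FBG against Mock 13 were higher and 32 lower by the same threshold (background 24.2% higher and 26.3% lower). In M1-FCP 11 rose and 35 fell (background 37.3% and 36.1%), and in αC 10 rose and 36 fell (background 38.0% and 36.7%). The median log2 fold change of the list was -0.16, -0.25 and -0.31. The 6 genes of the Ran cycle, which sets the direction of transport, lay below Mock in all 3 groups; 5, 6 and 6 of them were called. RAN itself, the GTPase of that cycle (named after its values were seen), was at -0.37 ± 0.02 in FBG, -0.72 ± 0.02 in M1-FCP and -0.75 ± 0.02 in αC. The gene with the largest change was SYNE2, a giant nesprin of the outer nuclear membrane, at 1.61 ± 0.05, 2.78 ± 0.05 and 3.21 ± 0.05. Its relative SYNE1 was at 0.93, 1.42 and 1.41, THOC2, the largest subunit of the THO mRNA export complex, at 1.28, 1.64 and 1.77, and KPNA5, an importin alpha, at 1.00, 1.44 and 1.43. ALYREF, an mRNA export adaptor, was at -0.18 in FBG and fell in M1-FCP, at -1.52 ± 0.02, and in αC, at -1.599 ± 0.020. DDX19B, the RNA helicase that GLE1 activates, was at -0.02 ± 0.05 in FBG, -1.33 ± 0.05 in M1-FCP and -1.47 ± 0.05 in αC, and DDX19A is a close paralog that may share its reads. LMNA, which encodes A-type lamins, was at -0.52 ± 0.02 in FBG. In αC against M1-FCP 2 of the 54 rose and 12 fell, 25.9% in all. The background was 9.01% of all tested genes and 23.6% of those with a mean of at least 1000 counts, a cut not applied to the list. Fewer of the list were called with any library left out. SYNE2 rose by 0.43 ± 0.03 and THOC2 by 0.13 ± 0.04. Among the largest decreases, 3 that fell were KPNA4, an importin alpha, at -0.17 ± 0.02, DDX19A at -0.16 ± 0.05 and KPNA1, another importin alpha, at -0.13 ± 0.03.

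**Figure D5:**
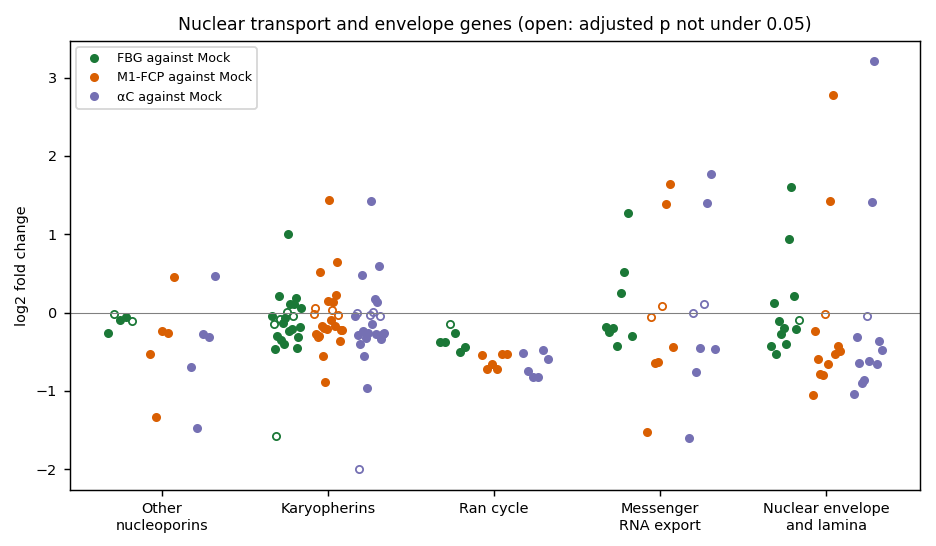
Log2 fold change against Mock of 54 genes of nuclear transport and the nuclear envelope, by group of genes; each point is a gene in FBG, M1-FCP or αC, filled where the adjusted p was under 0.05. All 6 Ran cycle genes lie below 0, and the highest point is SYNE2 at 3.21 in αC.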

How the data were processed

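RNA of 8 BEAS-2B libraries was sequenced, 2 each of FBG, M1-FCP, αC and Mock. Per the file headers, the authors deposited raw counts per gene, made by featureCounts 1.6.0 from read pairs over exons without strand or multi-mapping settings. The submitters' processing notes give version 1.6.2 and also name Trimmomatic 0.39, HISAT2 2.2.1, SAMtools 1.9 and GRCh38.p14, without roles. Without strand, reads of overlapping genes on opposite strands cannot be told apart, and reads of genes with close relatives or alternate-locus copies can be split or lost.

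The test was edgeR's robust quasi-likelihood test (version 4.0.16, R 4.3.3) after TMM scaling and filterByExpr, over all 8 libraries together (4 residual degrees of freedom) and Benjamini-Hochberg adjustment over 16307 genes, called under 0.05. The printed error is the larger of the fit's standard error and the counting error, and a 95% interval is built from that error. For the interval printed, that of NUP210, the counting error was the larger. A count of 3 corresponds to 0.135 to 0.198 CPM. CPM is scaled by TMM factors; levels are also divided by summed exonic length. GC content came from the longest GENCODE 29 transcript of a gene (14330 of the tested genes, all 30 members); its trend and that of length were removed per library with splines of 5 degrees of freedom. The fit was tested on simulated counts. DESeq2 1.42.0, library size scaling, no filter, a replicate block, fits of 4 libraries and fits without each library were tried.

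Named genes were the highest and lowest of each class in FBG against Mock, the 4 with the largest change in M1-FCP and in αC against Mock and up to 6 called in αC against M1-FCP by p; of the transport list, up to 5 called genes with the largest change per comparison. Subcomplex classes follow textbook positions. The members and lists were chosen with earlier results of these data known. The addition of RGPD reads and the background over genes with at least 1000 counts were chosen after seeing the data.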

Additional observations from a re-analysis of the deposited data

How the results depend on the processing

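The counts of nuclear pore genes called against Mock stayed within 1.5 times their value under every alternative, and the median log2 fold changes, which lie near 0, moved with the scaling. With library size as the only scaling the medians were 0.082 in FBG, 0.11 in M1-FCP and 0.064 in αC against Mock, all reversed, and -0.035 in αC against M1-FCP; all-gene calls then split 5183 higher to 3013 lower in FBG, 7673 to 4498 in M1-FCP and 7778 to 4493 in αC, against 3941 to 4285, 6085 to 5885 and 6199 to 5984 with TMM. That scaling also put NUP153 at 0.090 in FBG and KPNB1 at 0.19 in M1-FCP and 0.076 in αC. With GC content and length removed, with or without the replicate block, the members' medians against Mock were -0.15, -0.38 and -0.43. The medians of all genes were then -0.06, -0.18 and -0.19. By these fits NUP35 was at -0.018 (-0.019 with the block) in FBG. NUP54 was at -0.15, -0.16 and -0.11, and NUP214 at -0.082 in M1-FCP and -0.20 in αC. Without the block, all-gene calls split 2537 higher to 4741 lower in FBG, 4066 to 6875 in M1-FCP, 4131 to 6996 in αC and 668 to 1123 in αC against M1-FCP. DESeq2 gave medians of -0.069, -0.13, -0.19 and -0.050 and 4 called members in αC against M1-FCP. Without a filter the medians were -0.10 in M1-FCP against Mock and -0.051 in αC against M1-FCP, and with only the 4 libraries compared -0.10 in M1-FCP against Mock. Leaving out 1 library at a time gave medians of -0.074 to -0.024 in FBG, -0.13 to -0.10 in M1-FCP and -0.22 to -0.16 in αC against Mock and -0.054 to -0.032 in αC against M1-FCP, with 4 to 11 called members and 8 to 13 called transport genes in the last. A lone library was assumed to vary like the other groups. TMM factors were 0.907 in both Mock libraries, 0.981 in both of FBG, 1.055 and 1.058 in M1-FCP, and 1.063 and 1.064 in αC. Leaving them out shifts all genes of a comparison nearly alike. Why the factors differ, and the cause of the other moves, was not tested.

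Libraries with the same replicate number did not deviate together (correlations of -0.04 to 0.03). The variance between the libraries of a group was only 1.27 to 1.34 times the counting variance. Mostly counting noise was thus compared, and the correlations cannot show whether the numbers pair the samples. With the replicate block 21, 23, 24 and 9 members were called in the 4 comparisons in the order above. Of the other values of single named genes, 960 kept their side of the threshold, 33 lost a call and 16 gained one. Values that were not called could still change sign when a library was left out: AAAS ran from -0.16 to 2.72 in FBG and from -2.01 to 1.99 in αC against Mock and from -0.38 to 3.62 in αC against M1-FCP, NUP214 in αC against Mock from -0.024 to 0.077, NUP35 in M1-FCP against Mock from -0.10 to 0.013 and NUP93 in αC against M1-FCP from -0.020 to 0.014. Depth limits the genes with few counts, such as AAAS, NUP35 and, in M1-FCP and αC, NUP210, and 2 libraries per group leave the spread between cultures poorly known.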

Other observations

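SEH1L, the Y complex subunit outside the set, which lies on the transport list and was singled out, like the genes below, after its values were seen, had log2 fold changes of -0.11 ± 0.05 in FBG, 0.46 ± 0.05 in M1-FCP and 0.47 ± 0.05 in αC against Mock, above the Y complex median of -0.20 in M1-FCP and -0.31 in αC. KPNA2, the importin alpha that is abundant in dividing cells, was at -0.40 ± 0.02, -0.89 ± 0.02 and -0.97 ± 0.02. XPO1, the main export receptor, was at 0.11 ± 0.02, 0.22 ± 0.02 and 0.13 ± 0.02, which turned to -0.26, -0.31 and -0.41 with GC content and length removed. EMD, which encodes the inner membrane protein emerin, was at -0.43 ± 0.04, -1.05 ± 0.04 and -1.04 ± 0.04. THOC1, another THO subunit, was at 0.52 ± 0.08, 1.38 ± 0.07 and 1.40 ± 0.07.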
